A study of Arabidopsis thaliana with 24 samples.

Results

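Plants that had spent 78 h at 8 °C were set against plants that had spent 6 h there, to ask how the transcripts of a cooled leaf rosette differ between an early and a late harvest made at the same hour of the day. The arrays were chosen by their titles, which name the temperature, the length of the treatment and a replicate letter. They are 2 arrays of 78 h at 8 °C and 2 arrays of 6 h at 8 °C, lettered A and B in each group, so that 4 of the 24 arrays of the series carry the comparison. All 22746 probe sets of the array other than its 64 control probe sets were kept, of 22810 in all. The difference between 78 h and 6 h in plants left at 20 °C, from another 4 arrays, was used only as a background to subtract.

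Cold acclimation is the process by which a leaf adjusts to low, non-freezing temperature. Within hours, calcium signals and transcription factors switch on cold-regulated genes, among them the dehydrins, small hydrophilic proteins that protect membranes and other proteins. Over days, soluble sugars and anthocyanins accumulate, photosynthesis is readjusted to the slower use of light energy, and many early transcripts return towards their starting level.

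All plants were wild-type Arabidopsis thaliana, accession Columbia-0, with no transgene or mutation named in the labels. They grew on soil at 20 °C under 130 µmol of light with 12 h of light a day. At an age of 4 weeks they were moved, 4 h into the light, to 8 °C or to 20 °C, and the rosettes were frozen 78 h or 6 h later, in both cases 10 h into the light. The other temperatures of the series were 17, 14, 12 and 10 °C, with the same 2 harvests. Each sample pooled 3 whole rosettes, so that values are averages over leaf cell types and leaf ages. Fewer cells of a type and less RNA per cell cannot be told apart in them. The labels also mention at least 5 replicate samples, whereas each group has 2 arrays, and nothing says that A and B came from separate growth batches. P-values therefore measure the spread between these samples, which may be technical.

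The deposited signals ran between 3.87 and 14.81 on the log2 scale, with array medians between 7.15 and 7.25. The letters were a large source of variation: 13686 probe sets (60.2%) differed between A and B arrays. The first principal component held 39.2% of the variance, and its relation to letter, temperature or time was not examined. The arrays were paired by letter because the comparison was defined that way. As a check, the A-minus-B differences of any 2 groups correlated between 0.52 and 0.89 across probe sets. The annotation gave 13513 probe sets exactly 1 gene and 503 more than 1, and the remaining 8730 are left unnamed. The 8 measured rosette leaf markers, such as PRK and PSAN, were bright, with mean levels of 12.96 to 14.43. Most measured markers of other organs were dim: the flower gene AMS averaged 4.73, the seed gene M17 4.17, and the root genes EXPA7, EXPA18 and AGL42 together 5.45 and 5.48 at 78 h and 5.48 and 5.39 at 6 h of 8 °C. The stem marker GUT2 averaged 6.75, near the array medians, and the fourth root marker, PYK10, averaged 9.20. Arrays have no true zero, so none of these is a level of 0.

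At 8 °C, 3029 of 22746 probe sets differed between 78 h and 6 h, which is 13.3%. Of these, 1506 (6.62%) were higher and 1523 (6.7%) lower at 78 h (limma, letter as a block, Benjamini-Hochberg adjusted p under 0.05). Falls were larger than rises: 173 of the falling and 54 of the rising probe sets changed at least 2-fold. With the letter left out of the model, these counts were 60 and 41. In the 3029 the median size of the change was 0.53 on the log2 scale between the A arrays and 0.39 between the B arrays. The tested spread is shared by all 24 arrays, and no probe set passed when the 4 arrays of 8 °C were fitted alone (4423 had an unadjusted p under 0.05). Without the block the count was 649 (2.85%), with 329 higher and 320 lower. When each array was centred on its median, 1973 rose and 1225 fell, so the balance of rises and falls depends on the scaling. The 18 probe sets of the bioB, bioC, bioD and cre control sequences also read lower at 78 h, with a median change of -0.45 at 8 °C and -0.13 at 20 °C, and their part in this balance was not tested.

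Plants left at 20 °C gave no call between the same harvests. No probe set passed at an adjusted p under 0.05 in limma (smallest adjusted p = 0.0949), while 1736 (7.63%) had an unadjusted p under 0.05. After this 20 °C difference was subtracted, 1478 probe sets (6.5%) still changed at 8 °C, 735 (3.23%) upwards and 743 (3.27%) downwards. Without the block this number was 73 (0.321%). With median centring it was 1517, of which 929 rose and 588 fell. Past both tests in the same direction were 1344 probe sets (5.91%), 691 up (3.04%) and 653 down (2.87%). They named 709 genes, 391 that rose and 318 that fell, of which 102 have a symbol. Genes named below as changed passed the test at 8 °C, and it is said where one did not also pass after subtraction. Among them, STZ, BCAT4, OPCL1, AT5MAT, AT5G02870, AT5G62360, AT1G51090, AT3G56060, AT1G35710, AT4G14090, RING1, UGT84A3, EXPA16, EXLA1, SWEET2, SWEET17, COR27, UF3GT, OTP81, PGY1, APL4 and SBPASE missed the threshold without the block, with adjusted p between 0.0532 and 0.616.

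**Figure D1:**
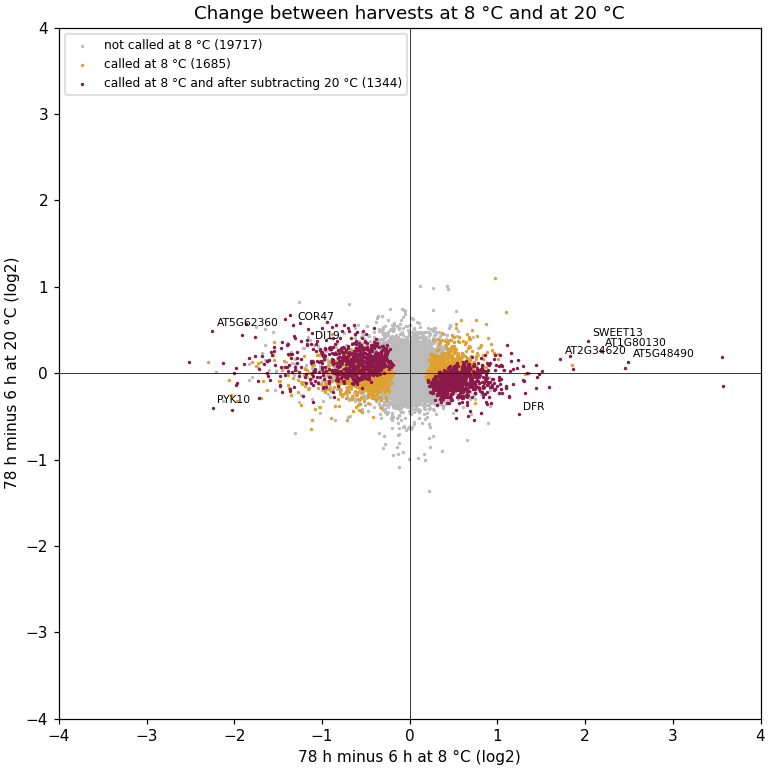
Change between the 78 h and the 6 h harvest of each of 22746 probe sets at 8 °C (horizontal axis) and at 20 °C (vertical axis), in log2 units, with 2 arrays per group. Colours mark the 3029 probe sets past the test at 8 °C and, of these, the 1344 that also passed in the same direction after the 20 °C change was subtracted; the cloud is wide along the 8 °C axis and narrow along the 20 °C axis.

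The first group of falling genes was high at 6 h of 8 °C and lower at 78 h. They include the dehydrin COR47 (AT1G20440), the zinc finger repressor STZ (AT1G27730), the serine protease inhibitor SERPIN1 (AT1G47710) and the clock gene GI (AT1G22770). Their levels at 6 h of 8 °C stood above those of 20 °C plants. Because the 6 h arrays enter both differences, the levels against 20 °C are given as values with no test.

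COR47 had log2 signals of 13.08 and 11.80 at 78 h, against 14.15 and 13.40 at 6 h of 8 °C. At 20 °C it had 12.23 and 10.93 at 78 h, against 11.57 and 10.46 at 6 h. The 78 h arrays at 8 °C were both lower than the 6 h arrays and, within each letter, still above 20 °C. Its change was -1.34 ± 0.20 (SE) in log2 units, a 2.52-fold fall (adjusted p = 0.000491), and -1.90 ± 0.28 after subtraction of 20 °C (adjusted p = 0.0013). Its A and B arrays lay so far apart that the call was lost without the block (adjusted p = 0.535).

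STZ, a transcriptional repressor known for fast and short-lived induction by stress, had 6.68 and 6.6 at 78 h, against 9.81 and 8.07 at 6 h of 8 °C. Its 78 h level was close to the 6.47 and 6.75 at 78 h and the 6.77 and 6.18 at 6 h of 20 °C. It fell by 2.30 ± 0.51 on the log2 scale (4.92-fold, adjusted p = 0.00745), with a difference of -3.13 between the A arrays and of -1.46 between the B arrays. Leaving out 1 array removed the call in 2 of 4 cases (adjusted p up to 0.133), and after subtraction of 20 °C it was not past the test (-2.43 ± 0.72, adjusted p = 0.0578). Of the other 2 measured members of the list of fast stress regulators, WRKY53 changed by -1.04 ± 0.56 (adjusted p = 0.277) and WRKY22 by -0.22 ± 0.09 (adjusted p = 0.127).

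COR47 was the only cold-regulated gene of its list past the test. The list of cold-regulated genes and dehydrins had 6 measured members, of which 1 fell and none rose. This share called, 16.7%, is close to the 13.3% of all probe sets. COR27, described below, is not counted among the 6. The median change of the list was -0.01, against 0.00 for all probe sets. LTI30 (AT3G50970), a dehydrin of acidic membranes, had 13.35 and 12.57 at 78 h and 13.79 and 13.35 at 6 h of 8 °C, far above its 9.91 and 9.09 at 78 h and 9.59 and 8.77 at 6 h of 20 °C. Its change of -0.61 ± 0.21 missed the threshold (adjusted p = 0.065). COR15A (AT2G42540), a chloroplast protein that protects membranes during freezing, had 14.27 and 14.24 at 78 h and 14.13 and 14.12 at 6 h, a change of 0.13 ± 0.11 (adjusted p = 0.526). These signals lie near the top of the scale, at 14.81, where an array compresses differences.

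Some genes known by locus code alone fell further. AT5G62360 had 10.76 and 9.45 at 78 h, against 13.38 and 11.33 at 6 h of 8 °C, and 10.89 and 10.06 at 78 h, against 10.46 and 9.50 at 6 h of 20 °C. It fell by 2.26 ± 0.22 (4.78-fold, adjusted p = 2.01e-05). At 78 h of 8 °C its A array lay between the 20 °C A arrays, and its B array was below both 20 °C B arrays. AT1G20030 had 8.84 and 8.74 at 78 h, against 10.96 and 10.55 at 6 h of 8 °C, and between 8.42 and 8.84 at 20 °C (log2 change -1.96 ± 0.21, adjusted p = 3.84e-05). AT1G51090 and AT1G32860 fell by 1.76 ± 0.20 and 1.72 ± 0.25, yet stayed above 20 °C at 78 h, by 0.99 and 1.28. AT4G09760 crossed the 20 °C level: its difference from 20 °C was 0.98 at 6 h and -0.89 at 78 h.

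GI, a clock-associated gene that also governs flowering time, had 10.84 and 10.18 at 78 h, against 11.39 and 10.83 at 6 h of 8 °C. The groups overlapped through the letters, while the A arrays differed by -0.55 and the B arrays by -0.64. The change of -0.60 ± 0.14 (adjusted p = 0.0101) was lost without the block (adjusted p = 0.629) and in 2 of 4 omissions of an array. COR27 (AT5G42900), a cold-induced regulator tied to the clock, had 10.02 and 9.91 at 78 h, against 11.39 and 10.48 at 6 h, and fell by 0.97 ± 0.18 (adjusted p = 0.00281), which was lost in 1 of 4 omissions of an array (adjusted p = 0.0543). SERPIN1, which inhibits a vacuolar protease, had 10.81 and 10.75 at 78 h, against 12.01 and 11.62 at 6 h, and fell by 1.04 ± 0.11 (adjusted p = 4.23e-05). CML38 (AT1G76650), a calmodulin-like calcium sensor, had 5.12 and 5.07 at 78 h, against 6.47 and 5.88 at 6 h, and fell by 1.08 ± 0.15 (adjusted p = 0.000446). It was the only one called of 7 measured calcium sensors, and this share, 14.3%, is close to the 13.3% of all probe sets.

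The second group of falling genes lay nearer its 20 °C level after 6 h than after 78 h. At 6 h, 8 °C less 20 °C was -0.68 for AT3G56060, -0.47 for AT1G35710, -0.34 for DI19 and 0.48 for RING1. These too are values with no test. PYK10 (AT3G09260), the beta-glucosidase of ER bodies, a defence compartment most abundant in roots, had 7.09 and 8.01 at 78 h, against 9.66 and 9.94 at 6 h of 8 °C. At 20 °C it had 9.12 and 9.77 at 78 h, against 9.76 and 9.93 at 6 h. The 78 h arrays of 8 °C were the lowest of the 8. The change was -2.25 ± 0.19 (4.75-fold, adjusted p = 7.08e-06), and -1.85 ± 0.26 after subtraction of 20 °C (adjusted p = 0.00123). PYK10 is on the list of root markers. Of 4 measured root markers it was the only one called, where 13.3% of all probe sets were called. The mean of all 4 was 5.86 and 6.12 at 78 h and 6.52 and 6.53 at 6 h of 8 °C. Without PYK10 the mean of the other 3 was 5.45 and 5.48 at 78 h and 5.48 and 5.39 at 6 h. The part of root tissue in the fall of PYK10 was not tested.

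JAL22 (AT2G39310), a jacalin-related lectin, had 6.41 and 6.71 at 78 h, against 7.61 and 7.72 at 6 h, and fell by 1.1 ± 0.14 (adjusted p = 0.000199). DI19 (AT1G56280), a zinc finger protein named for its induction by drought, had 10.20 and 10.26 at 78 h, against 11.40 and 11.33 at 6 h of 8 °C. At 20 °C it had 11.90 and 12.18 at 78 h, against 11.58 and 11.83 at 6 h. The A and B arrays lay close together in each group, and the gene fell by 1.13 ± 0.09 (adjusted p = 7.08e-06), a change of -1.47 ± 0.13 after subtraction of 20 °C (adjusted p = 6.47e-05). RING1 (AT5G10380), a membrane ubiquitin ligase of cell death signalling, had 8.70 and 8.04 at 78 h, against 10.62 and 9.26 at 6 h, and fell by 1.57 ± 0.24 (adjusted p = 0.000755). AT1G35710 had 8.15 and 7.43 at 78 h, against 10.61 and 8.93 at 6 h, and differed from 20 °C by -2.51 at 78 h. It fell by 1.98 ± 0.37 (adjusted p = 0.00283), a call lost in 1 of 4 omissions of an array (adjusted p = 0.055). AT3G56060 had 5.44 and 5.03 at 78 h, against 7.48 and 6.52 at 6 h, with a difference of -2.64 from 20 °C at 78 h. AT5G58570 fell by 1.89 ± 0.23, with a difference of -1.58 from 20 °C at 78 h.

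**Figure D2:**
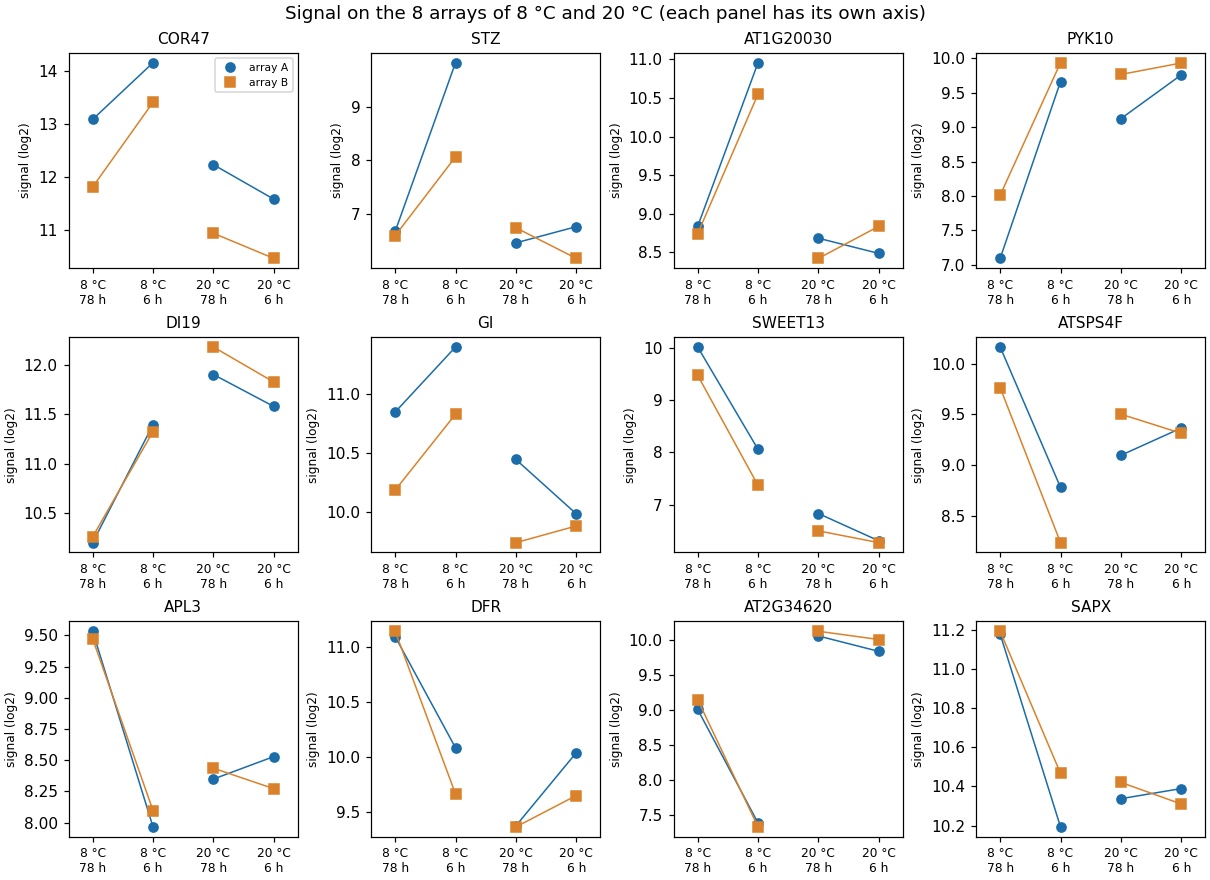
Log2 signal of 12 genes on the 8 arrays of 8 °C and 20 °C, each with its own vertical axis; circles are A arrays, squares B arrays, and lines join the 78 h and the 6 h array of a letter at 1 temperature. Within each letter, COR47, STZ, AT1G20030 and GI stood highest at 6 h of 8 °C, PYK10 and DI19 lowest at 78 h of 8 °C, and SWEET13, ATSPS4F, APL3, DFR and SAPX highest at 78 h of 8 °C, while AT2G34620 was lowest at 6 h of 8 °C.

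Genes of carbohydrate handling were among the largest rises of named genes. SWEET13 (AT5G50800), a plasma membrane exporter of sucrose for phloem loading, had 10.01 and 9.47 at 78 h, against 8.06 and 7.37 at 6 h of 8 °C. At 20 °C it had 6.84 and 6.51 at 78 h, against 6.32 and 6.28 at 6 h, so that its level stepped up at each harvest in the cold. It rose by 2.03 ± 0.14 (4.08-fold, adjusted p = 2.17e-06), and by 1.65 ± 0.20 after subtraction of 20 °C (adjusted p = 0.000424). ATSPS4F (AT4G10120), a sucrose-phosphate synthase, had 10.17 and 9.76 at 78 h, against 8.78 and 8.24 at 6 h of 8 °C, and 9.10 and 9.50 at 78 h, against 9.37 and 9.31 at 6 h of 20 °C. It was thus below the 20 °C arrays after 6 h and above them after 78 h, a rise of 1.46 ± 0.19 (adjusted p = 0.000199).

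The list of sucrose synthesis, cleavage and sugar transport had 19 measured members, of which 2 rose and 1 fell, with a median change of 0.06. This share called, 15.8%, is close to the 13.3% of all probe sets. ATSPS4F is not counted among the 19. SWEET2 (AT3G14770), a vacuolar glucose transporter, rose by 0.74 ± 0.12 (adjusted p = 0.000929). SWEET17 (AT4G15920), a vacuolar fructose transporter, fell by 1.01 ± 0.23 (adjusted p = 0.00945), a call lost in 2 of 4 omissions of an array (adjusted p up to 0.138). The vacuolar sugar importer TMT1 changed by 0.33 ± 0.15 (adjusted p = 0.168).

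In starch metabolism, 2 of 6 measured members rose (33.3% called, against 13.3% of all probe sets) and none fell, while the median was -0.11. Both encode large, regulatory subunits of ADP-glucose pyrophosphorylase, which makes the glucose donor of starch synthesis. APL3 (AT4G39210) had 9.53 and 9.47 at 78 h, against 7.97 and 8.10 at 6 h of 8 °C, and 8.35 and 8.44 at 78 h, against 8.53 and 8.27 at 6 h of 20 °C. It rose by 1.47 ± 0.17 (2.77-fold, adjusted p = 6.57e-05). APL4 (AT2G21590) rose by 0.37 ± 0.09 (adjusted p = 0.0135), a call lost in 3 of 4 omissions of an array (adjusted p up to 0.168), but by 0.16 ± 0.13 after subtraction of 20 °C (adjusted p = 0.569). Outside the list, AT1G78050 fell by 1.1 ± 0.18 (adjusted p = 0.00104). Its annotated symbol, PGM, is not read here as the phosphoglucomutase of starch synthesis.

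Most called members of flavonoid and anthocyanin synthesis rose. Of 8 measured members of the flavonoid list 4 rose and 1 fell, with a median change of 0.83. The share called was 62.5%, against 13.3% of all probe sets. DFR (AT5G42800), dihydroflavonol reductase, which commits flavonoids to anthocyanin, had 11.09 and 11.14 at 78 h, against 10.08 and 9.66 at 6 h of 8 °C. At 20 °C it had 9.38 and 9.37 at 78 h, against 10.04 and 9.65 at 6 h. The 6 h arrays of both temperatures were thus alike, and the 78 h arrays lay apart by 1.75. Its rise was 1.24 ± 0.21 at 8 °C (2.37-fold, adjusted p = 0.00151), and 1.72 ± 0.30 after subtraction of 20 °C (adjusted p = 0.00424).

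UF3GT (AT5G54060), which adds xylose to anthocyanins, had 9.99 and 10.00 at 78 h, against 9.05 and 9.08 at 6 h, a rise of 0.93 ± 0.23 (adjusted p = 0.0148). AT4G14090, kept on the list by locus code, had 10.22 and 10.05 at 78 h, against 9.01 and 8.62 at 6 h, and rose by 1.32 ± 0.29 (adjusted p = 0.00738). Both calls were lost in 2 of 4 omissions of an array (adjusted p up to 0.164 and 0.0759), and AT4G14090 was not past the test after subtraction (adjusted p = 0.0698). The acyltransferase AT5MAT rose by 0.77 but was not past the test after subtraction, and CHIL, a chalcone isomerase-like protein, changed by 0.90 without passing (adjusted p = 0.0833). UGT78D3 (AT5G17030), a flavonol arabinosyltransferase, went against the rest. It had 5.69 and 5.40 at 78 h, against 6.97 and 6.35 at 6 h, and fell by 1.12 ± 0.19 (adjusted p = 0.00155).

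Among the glycosyltransferases outside anthocyanin synthesis, 2 of 45 measured members rose and 6 fell, with a median of -0.06, and the 17.8% called compare with 13.3% of all probe sets. UGT84A3 (AT4G15490), which forms glucose esters of hydroxycinnamic acids, fell by 1.29 ± 0.21 (adjusted p = 0.00104), and UGT71C5 (AT1G07240), which glucosylates abscisic acid, by 0.77 ± 0.10 (adjusted p = 0.000182). UGT88A1 (AT3G16520) rose by 0.81 ± 0.11 (adjusted p = 0.000354). The 12 tau and phi glutathione S-transferases changed by between -0.34 and 0.40, none of them past the test.

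Photosystem subunits and electron carriers encoded in the nucleus fell by small amounts. Of 6 measured members 5 fell (83.3% called, against 13.3% of all probe sets), 4 of them also after subtraction of 20 °C. The median was -0.35. PGRL1B (AT4G11960), a thylakoid protein of cyclic electron flow, had 7.67 and 7.68 at 78 h, against 8.45 and 8.18 at 6 h of 8 °C, and between 8.86 and 9.07 at 20 °C. It fell by 0.64 ± 0.08 (adjusted p = 0.00016). PSAN (AT5G64040), a lumenal subunit of photosystem I, had 13.22 and 13.35 at 78 h, against 13.76 and 13.80 at 6 h, and fell by 0.49 ± 0.06 (adjusted p = 0.00014). PSAE-1 fell by 0.29 ± 0.05 (adjusted p = 0.00253). PSBW, a small subunit of photosystem II, fell by 0.41 ± 0.09 (adjusted p = 0.00642), a call lost in 2 of 4 omissions of an array and, after subtraction, short of the threshold (adjusted p = 0.0655).

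Several of these genes are also leaf markers, and 4 of the 8 leaf markers fell, against 6.7% of all probe sets. After subtraction of 20 °C 4 of the 8 fell as well, but not all the same genes, since PSBW missed the threshold (adjusted p = 0.0655). The mean of the 8 was 13.43 and 13.45 at 78 h, against 13.76 and 13.61 at 6 h of 8 °C. Among 5 light-harvesting proteins 1 fell (20.0% called), with a median of 0.06, and the difference from the photosystem list was not tested. Of 3 Calvin cycle members 1 was called (33.3%, against 13.3% of all probe sets). This was SBPASE, which rose by 0.32 ± 0.07 (adjusted p = 0.00993). Its call was lost in 2 of 4 omissions of an array, and it was not past the test after subtraction (adjusted p = 0.251). PRK changed by 0.02 ± 0.08. RCA changed by -0.18 ± 0.08 (adjusted p = 0.144). After subtraction RCA was the only member called, with a change of -0.39 ± 0.11 (adjusted p = 0.0461), a call not made without the block. In tetrapyrrole synthesis, 2 of 8 rose, against 6.62% of all probe sets, and none fell, with a median of -0.01. CHLI2 (AT5G45930), a subunit of the magnesium chelatase that starts chlorophyll synthesis, had 10.89 and 11.01 at 78 h, against 10.31 and 10.52 at 6 h, and rose by 0.53 ± 0.07 (adjusted p = 0.000194).

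Scavengers of reactive oxygen moved in both directions. SAPX (AT4G08390), the ascorbate peroxidase of the chloroplast stroma and mitochondria, had 11.18 and 11.19 at 78 h, against 10.19 and 10.47 at 6 h of 8 °C, and between 10.31 and 10.42 at 20 °C. It rose by 0.85 ± 0.10 (1.81-fold, adjusted p = 6.47e-05). TAPX (AT1G77490), its counterpart bound to the thylakoid, had 10.10 and 10.24 at 78 h, against 10.67 and 10.60 at 6 h, and fell by 0.47 ± 0.10 (adjusted p = 0.00493). GR1 (AT3G24170), a glutathione reductase, had 11.25 and 11.09 at 78 h, against 10.51 and 10.68 at 6 h of 8 °C, and between 9.45 and 9.85 at 20 °C. It rose by 0.58 ± 0.12 (adjusted p = 0.00464). The calls of TAPX and GR1 were each lost in 2 of 4 omissions of an array (adjusted p up to 0.0717 and 0.0878). With 5 measured members, 2 rose and 1 fell, where 6.62% of all probe sets rose and 6.7% fell.

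Some nuclear genes for chloroplast RNA and protein handling rose. They were named by the size of their change and belong to no list, so nothing is counted over them. SECA2 (AT1G21650), the motor of a protein translocase in the chloroplast envelope, had 7.81 and 7.96 at 78 h, against 6.24 and 6.66 at 6 h of 8 °C, and between 6.92 and 7.34 at 20 °C. It rose by 1.44 ± 0.14 (adjusted p = 1.87e-05). MAP1C, a plastid methionine aminopeptidase, rose by 0.75 ± 0.09 (adjusted p = 0.000118). RH39, an RNA helicase of plastid ribosomal RNA maturation, rose by 0.76 ± 0.14 (adjusted p = 0.00283), and OTP81, a protein of chloroplast RNA editing, by 0.71 ± 0.12 (adjusted p = 0.00101). The call of RH39 was lost in 1 of 4 omissions of an array (adjusted p = 0.0638).

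All 3 measured cytosolic ribosomal proteins rose, against 6.62% of all probe sets, with a median of 0.44. PGY1 (AT2G27530), a protein of the large subunit, had 12.87 and 12.97 at 78 h, against 12.33 and 12.62 at 6 h, and rose by 0.44 ± 0.07 (adjusted p = 0.00134). AT3G09200, on the list by locus code, had 13.89 and 13.92 at 78 h, against 13.27 and 13.45 at 6 h, and rose by 0.54 ± 0.06 (adjusted p = 8.25e-05). AT5G02870 rose by 0.34 ± 0.10 (adjusted p = 0.0285), lost in 3 of 4 omissions and not past the test after subtraction. None of 4 nucleolar ribosome assembly genes passed.

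Of 27 measured expansins and xyloglucan-modifying enzymes 2 rose and 3 fell, which is 18.5% against 13.3% of all probe sets, and the median was 0.00. EXLB1 (AT4G17030), an expansin-like protein, had 9.46 and 9.78 at 78 h, against 8.16 and 8.47 at 6 h of 8 °C, and between 8.95 and 9.13 at 20 °C. It rose by 1.31 ± 0.12 (adjusted p = 1.87e-05). EXPB1, a beta-expansin, rose by 1.03 ± 0.15 (adjusted p = 0.00052). EXLA1 (AT3G45970) had 6.24 and 5.95 at 78 h, against 8.03 and 6.72 at 6 h, and fell by 1.28 ± 0.26 (adjusted p = 0.0048), lost in 1 of 4 omissions (adjusted p = 0.0863). EXPA16, an alpha-expansin, fell by 1.14 ± 0.18 (adjusted p = 0.000822). Of 7 tubulins 2 fell and none rose (28.6% called, against 13.3% of all probe sets, median -0.26), led by TUB9 at -0.62 ± 0.09 (adjusted p = 0.000401). The other, TUB6, fell by 0.36 ± 0.11 (adjusted p = 0.0431), a call lost without the block (adjusted p = 0.129) and under 2 other settings.

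Among probe sets with a single gene, the largest rise was that of AT5G48490, with 10.38 and 10.55 at 78 h, against 8.04 and 7.91 at 6 h of 8 °C, and between 8.27 and 8.54 at 20 °C. It rose by 2.49 ± 0.23 (5.62-fold, adjusted p = 1.41e-05). Larger rises, looked up after the values were seen, were those of 2 unnamed probe sets. One, 258321_at, had 12.09 and 12.16 at 78 h, against 8.32 and 8.78 at 6 h of 8 °C (change 3.58 ± 0.33, adjusted p = 1.6e-05), and the other, 245306_at, had 12.14 and 11.68 at 78 h, against 8.11 and 8.59 at 6 h (change 3.56 ± 0.42, adjusted p = 8.34e-05). AT1G80130 had 11.37 and 11.01 at 78 h, against 9.36 and 8.66 at 6 h of 8 °C, and between 7.98 and 8.32 at 20 °C, a rise of 2.18 ± 0.18 (adjusted p = 6.46e-06). AT2G34620 stood low at 6 h. It had 9.01 and 9.15 at 78 h, against 7.39 and 7.34 at 6 h of 8 °C, below the 10.05 and 10.12 at 78 h and the 9.83 and 10.00 at 6 h of 20 °C. Its rise of 1.71 ± 0.11 (adjusted p = 1.01e-06) left a difference of -1.01 from 20 °C at 78 h. BETA-VPE (AT1G62710), a vacuolar processing protease best known from seeds, had 9.39 and 8.91 at 78 h, against 8.20 and 7.64 at 6 h of 8 °C, and between 6.61 and 6.88 at 20 °C, a rise of 1.24 ± 0.14 (adjusted p = 6.59e-05).

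Of the remaining genes chosen by size, those known by locus code alone have no role in the annotation used here. AT1G60590 had 8.94 and 9.14 at 78 h, against 7.56 and 7.84 at 6 h of 8 °C, and between 8.78 and 9.16 at 20 °C, so that its rise of 1.34 ± 0.12 (adjusted p = 1.4e-05) brought it to the 20 °C level. AT4G12490 and AT4G12500 rose by 1.44 ± 0.12 and 1.29 ± 0.09, with nearly equal changes in the A and the B arrays although the letters differed in level. Both calls were lost without the block (adjusted p = 0.516 and 0.358). AT4G36010 had 9.81 and 9.32 at 78 h, against 12.09 and 10.25 at 6 h, and fell by 1.60 ± 0.32 (adjusted p = 0.00416), lost in 2 of 4 omissions of an array (highest adjusted p = 0.085). It also missed the threshold once the letter was left out of the model (adjusted p = 0.2). AT4G20830 had 8.60 and 8.48 at 78 h, against 10.52 and 9.73 at 6 h, and fell by 1.59 ± 0.28 (adjusted p = 0.00193). CHX16, of the cation and proton exchanger family, had 7.52 and 7.16 at 78 h, against 8.75 and 8.27 at 6 h, and fell by 1.17 ± 0.15 (adjusted p = 0.000195).

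Other lists had few calls. None of 12 auxin genes, 5 cell cycle genes and histones, or 5 heat shock genes passed. GID1C, a gibberellin receptor, fell by 0.56 ± 0.10 (adjusted p = 0.00165), while its paralogues GID1A and GID1B changed by 0.12 ± 0.10 and -0.52 ± 0.22 (adjusted p = 0.544 and 0.151). Of 3 glucosinolate genes 2 fell (66.7% called, against 13.3% of all probe sets). BCAT4, the aminotransferase that starts chain elongation of methionine, led them at -0.82 ± 0.17 (adjusted p = 0.00471). Its call was lost in 1 of 4 omissions of an array, and it was not past the test after subtraction (adjusted p = 0.0565). The other, UGT74B1, fell by 0.45 ± 0.14 (adjusted p = 0.0495). This call was lost without the block (adjusted p = 0.158) and under 2 other settings. After subtraction UGT74B1 was not past the test either (adjusted p = 0.266). OPCL1, of jasmonate synthesis, fell by 0.82 ± 0.23 (adjusted p = 0.0261), lost in 3 of 4 omissions (adjusted p up to 0.307) and not past the test after subtraction (adjusted p = 0.12).

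**Figure D3:**
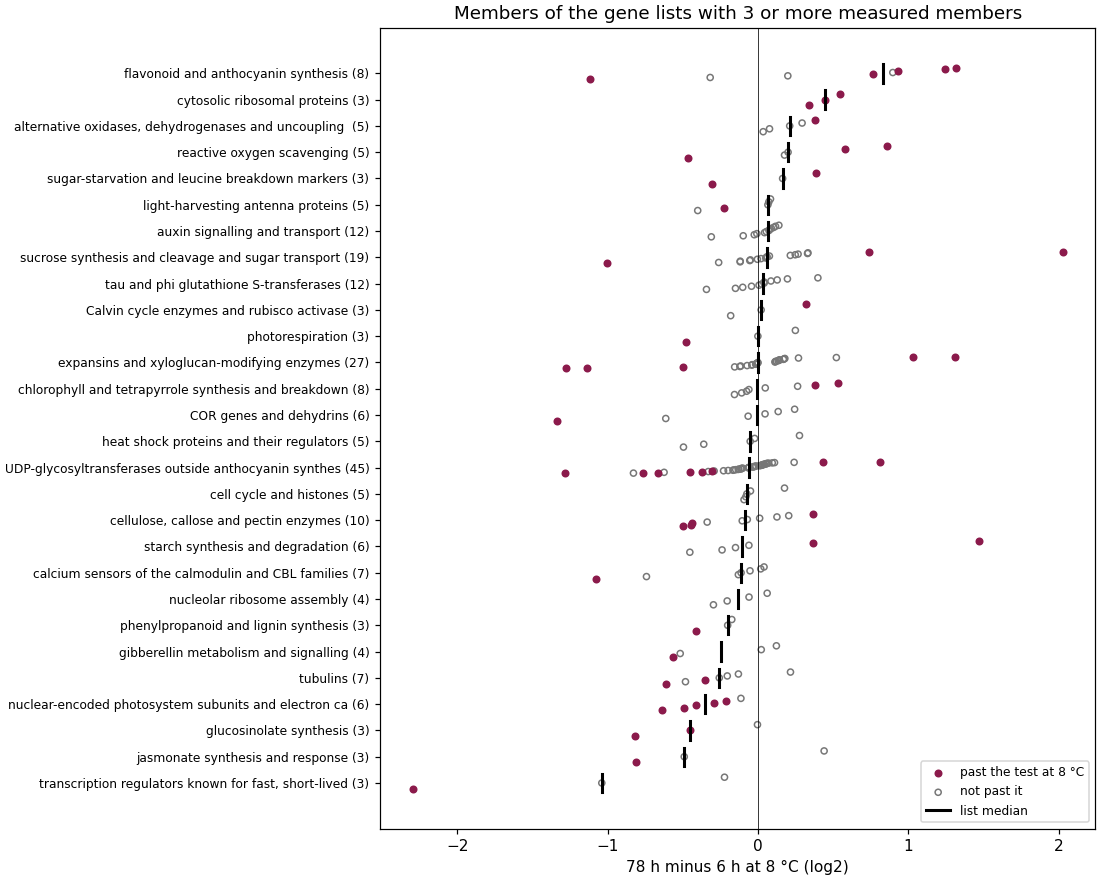
Change between 78 h and 6 h at 8 °C, in log2 units, of each measured member of the gene lists with 3 or more members (number in parentheses); filled points passed the test, open points did not, and the bar is the list median. Flavonoid synthesis (median 0.83) lies at the top and the fast stress regulators (3 members, 1 called, median -1.04) at the bottom. The jasmonate (-0.49), glucosinolate (-0.45) and photosystem (-0.35) lists come next, with most other medians close to 0.

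The change at 8 °C was then set beside that at the other temperatures, which share no array with it. From 17 to 10 °C, 865, 900, 1310 and 1500 of the 1506 rising probe sets had a change above 0 (57.4%, 59.8%, 87.0% and 99.6%), against 54.5%, 43.7%, 49.0% and 58.1% of all probe sets. Their median change was 0.04, 0.05, 0.24 and 0.43 at 17, 14, 12 and 10 °C, and 0.43 at 8 °C. The 1523 falling probe sets had medians of -0.03, -0.13, -0.24 and -0.41, and -0.50 at 8 °C. The 8 °C medians come from probe sets called on those arrays and are a description.

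The change at 8 °C differed from that at 17 °C at 1026 probe sets (4.51%), from that at 14 °C at 918 (4.04%), and from that at 12 °C at 10 (0.044%), of which 5 were higher and 5 lower. Without the block these counts were 19, 1 and 0, with 905 probe sets at an unadjusted p under 0.05 for 12 °C. It differed from that at 10 °C at none in limma, with or without the block, where 706 probe sets (3.10%) had an unadjusted p under 0.05. The 95% interval of the 8 °C change less the 10 °C change was on median ± 0.29 in log2 units, with no adjustment for the number of probe sets. Differences smaller than this are not resolved, and larger ones can also miss the adjusted threshold. For SWEET13, which was not called, this interval was 0.15 to 1.0, and for COR47 it was -0.26 to 0.92.

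Among named genes, SWEET13 changed by 0.37, 0.72, 0.45, 0.96, 1.45 and 2.03 at 20, 17, 14, 12, 10 and 8 °C. Its change at 8 °C exceeded that at 14 °C by 1.58 ± 0.20 (adjusted p = 0.00165), a call not made without the block. SECA2 changed by -0.17, -0.03, 0.12, 0.68, 1.43 and 1.44 at the same temperatures, with the larger changes from 12 °C downwards. AT2G34620 changed by 0.17, 0.89, 1.27, 1.86, 2.04 and 1.71, more evenly along the series. PYK10 changed by -0.40, -0.74, -0.90, -1.43, -1.68 and -2.25, and DI19 by 0.34, 0.06, -0.15, -0.40, -0.90 and -1.13. AT1G35710 changed by 0.35 at 14 °C, and its change at 8 °C less that was -2.34 ± 0.53 (adjusted p = 0.0236).

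**Figure D4:**
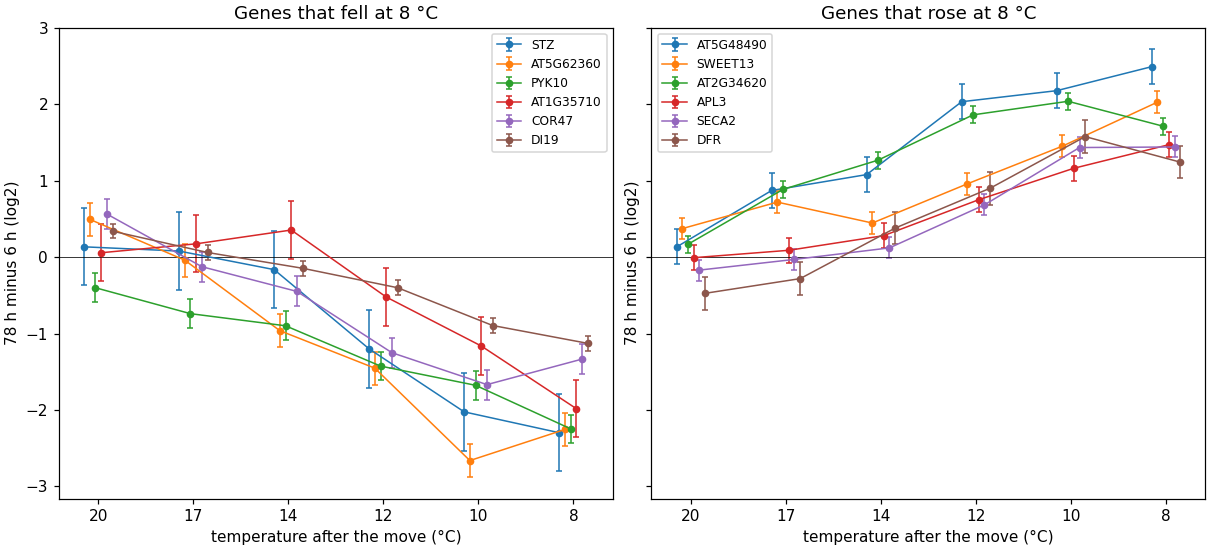
Change between 78 h and 6 h in log2 units (estimate, bars are the SE of the fit, 2 arrays per group) of 6 genes that fell and 6 that rose at 8 °C, from the 20 °C control to 8 °C; points are shifted sideways for legibility. The 20 °C changes lie between -0.47 and 0.56, and the 8 °C changes between -2.30 and -1.13 for the falling and between 1.24 and 2.49 for the rising genes.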

How the data were processed

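The authors deposited 1 value per probe set and array. Per the labels' protocols, targets were biotinylated cRNA made from Trizol-extracted total RNA. The deposited values are taken as log2 signals from their range, since neither the base nor the normalization method is given in the sources used here. They were kept as deposited. Genes came from the platform annotation, with names updated through the TAIR10.1 gene table (13484 of 13513 single-gene probe sets matched).

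Group means of all 24 arrays were fitted in limma 3.58.1 (R 4.3.3) with the replicate letter as a block, 11 residual degrees of freedom and empirical Bayes moderation. P-values were Benjamini-Hochberg adjusted over 22746 probe sets and called under 0.05. The letters paired the arrays by the definition of the comparison. As a check, all 66 correlations of A-minus-B differences between groups were at least 0.52. The method was tested on simulated data. ± is the SE of the fit, and 2 arrays per group limit the precision.

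The named genes are the 12 largest changes each way past both tests, 15 each way among genes with a symbol, and up to 4 members of each list by size of change. A gene was given by its brightest probe set. AT5MAT and CHIL lie outside this rule and were chosen after their values were seen. The comparison, members and lists were chosen with earlier results of these data known. Of 47 lists, 42 had a measured member; lists have no test. No sequences or promoter motifs were analysed here.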

Additional observations from a re-analysis of the deposited data

Results flagged for a closer look

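The change between harvests at 8 °C differed from that at 20 °C at 1478 probe sets, from that at 17 °C at 1026, from that at 14 °C at 918 and from that at 12 °C at 10, each by a test of the difference in limma with the letter as a block. Without the block the counts were 73, 19, 1 and 0, so none of the 10 was called against 12 °C (smallest adjusted p = 0.128, 905 probe sets with an unadjusted p under 0.05). Of the 10 that differed from 12 °C, 5 had a single listed gene. AT5G08400 changed by 1.17 at 8 °C and by 0.37 at 12 °C, a difference of 0.80 ± 0.10 (adjusted p = 0.015). AT5G53920 changed by 0.89 at 8 °C and by 0.08 at 12 °C, a difference of 0.81 ± 0.11 (adjusted p = 0.0152). AT2G28080 changed by -1.05 at 8 °C and by -0.17 at 12 °C, a difference of -0.88 ± 0.12 (adjusted p = 0.015). AT5G16940 changed by -0.40 at 8 °C and by 0.65 at 12 °C, a difference of -1.05 ± 0.16 (adjusted p = 0.0331). AT1G06760 changed by -0.64 at 8 °C and by -0.10 at 12 °C, a difference of -0.55 ± 0.09 (adjusted p = 0.0421).

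Control probe sets outside the comparison also moved. The 18 probe sets of the bacterial and phage control sequences bioB, bioC, bioD and cre all read lower at 78 h than at 6 h of 8 °C, with a median of -0.45 and a range from -0.80 to -0.31. At 20 °C all 18 were lower as well, with a median of -0.13. At 8 °C 4 of the 18 would have passed the threshold among plant probe sets. Their part in the balance of plant probe sets was not tested.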

How the results depend on the processing

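Without the replicate block, 649 probe sets were called at 8 °C and 73 after subtraction of 20 °C. With only the arrays of the compared groups these counts were 0 and 186, where 4423 and 3767 had an unadjusted p under 0.05. Leaving out each array in turn gave 1113 to 2979 calls at 8 °C, with 1113 without 78 h A, 1123 without 6 h A and 1915 without 78 h B, and 470 to 1762 after subtraction, where 470, 540, 855, 779, 698 and 861 were called without 78 h A, 6 h A, 20 °C 78 h A, 20 °C 78 h B, 20 °C 6 h A and 20 °C 6 h B. A replicate block for each harvest time, added after the data were seen, gave 4188 and 2502. At 20 °C the count was 2 with trend and robust estimation, 8 with the block by harvest time, and 0 to 1 over omissions. Without the replicate block the comparisons with 17, 14 and 12 °C gave 19, 1 and 0 calls. The comparison with 10 °C gave 0 under every alternative run. Cyclic loess, leaving out the dimmest 25%, array weights, trend and robust estimation and median centring kept the counts at 2778 to 3198 and 1336 to 1517. Of 80 named genes called at 8 °C, 39 lost the call without the block, 30 in at least 1 omission, 7 under another setting and 80 in the fit of 4 arrays alone, and none changed direction.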

Other observations

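Genes encoded in the chloroplast genome, chosen after their values were seen, read slightly lower at the later harvest at both temperatures. Of 69 such probe sets, 49 were below 0 at 8 °C with a median of -0.13, and 60 were below 0 at 20 °C with a median of -0.21. The median of the difference between the temperatures was 0.03. At 8 °C 3 of the 69 fell past the test, against 6.7% of all probe sets, and after subtraction of 20 °C none passed.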
